A study of Mus musculus with 6 samples.

Results

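A group of 10 secreted regulators of inflammation was examined in mouse airway epithelium with and without transforming growth factor β1 (TGF-β1). They were the gp130 cytokines Il11, Il6 and Lif, the interleukin 1 (IL-1) family genes Il1a, Il1b, Il1rn, Il18 and Il33, and the epithelial cytokines Tslp and Csf2. The 10 genes were given by name, and every non-control probe whose RefSeq accession belonged to one of them was taken, which gave 14 probes for the 10 genes, out of 56599 probes and 22910 genes on the array. The cultures were airway organoids from C57BL/6 mouse lung (MAOs) that had been dissociated and plated flat on collagen in 6-well plates, called 2D-MAOs. From day 3 all 6 cultures were in medium without noggin, an inhibitor of bone morphogenetic proteins, and without A83-01, an inhibitor of the TGF-β type I receptor kinase. On that day TGF-β1 was added to 3 of them, and the other 3 were controls without it. Cells were harvested on day 7, and no concentration of TGF-β1 is named for the array cultures. According to the methods the replicates were biological, and the age and number of the mice are not given in the sources used here. RNA of each culture was measured on 1 single-colour Agilent array, and values are log2 signals after quantile normalization. Since the brightness of a spot depends on its probe, levels were compared between arrays and not between genes.

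IL-11, IL-6 and leukaemia inhibitory factor (LIF) each bind a receptor of their own that recruits the shared chain gp130, encoded by Il6st, and signal through JAK kinases and STAT3. IL-11 is widely studied as a factor produced downstream of TGF-β1 in fibroblasts. IL-1α and IL-1β act through the adaptor MyD88 on NF-κB and are blocked by the receptor antagonist encoded by Il1rn, whereas IL-18 and IL-33 use related receptors. IL-33 and thymic stromal lymphopoietin (TSLP) are alarmins that airway epithelium can release to act on immune cells, and Csf2 encodes granulocyte-macrophage colony-stimulating factor (GM-CSF), which alveolar macrophages depend on.

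The upstream sequences of Il11, Lif and Csf2 are shown because these 3 genes carry the comparison: Il11 hardly differed between the groups, and Lif and Csf2 had the highest fold changes of the 6 cytokine genes tested. Each is the 250 bases before a transcription start site in RefSeq on the mouse build GRCm38.p6, read 5′ to 3′ on the strand of the gene. Capitals mark matches on either strand to the letters TGANTCA (an AP-1 motif) and CAGAC (a SMAD motif). The Il11 window is chr7:4778142-4778391 on the minus strand, the Lif window chr11:4257318-4257567 on the plus strand and the Csf2 window chr11:54249900-54250149 on the minus strand.
Il11: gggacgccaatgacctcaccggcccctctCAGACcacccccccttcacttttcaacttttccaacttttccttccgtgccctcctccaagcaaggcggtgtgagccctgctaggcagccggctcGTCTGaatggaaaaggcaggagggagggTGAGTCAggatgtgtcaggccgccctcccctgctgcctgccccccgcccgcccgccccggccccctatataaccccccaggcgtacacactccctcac
Lif: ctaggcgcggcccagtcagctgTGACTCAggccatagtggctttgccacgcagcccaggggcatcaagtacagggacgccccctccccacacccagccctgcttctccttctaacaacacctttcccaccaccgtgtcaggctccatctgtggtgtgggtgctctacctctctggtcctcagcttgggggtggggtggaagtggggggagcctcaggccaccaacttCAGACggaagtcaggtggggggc
Csf2: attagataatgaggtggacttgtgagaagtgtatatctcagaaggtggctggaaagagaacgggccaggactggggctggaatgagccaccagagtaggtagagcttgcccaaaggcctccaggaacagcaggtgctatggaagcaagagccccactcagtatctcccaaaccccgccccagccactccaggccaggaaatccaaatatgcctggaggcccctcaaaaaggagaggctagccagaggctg
The Il11 window held 1 AP-1 match, which began 98 bases before the start, and 2 SMAD matches. The Lif window held 1 AP-1 match that began 228 bases before the start and 1 SMAD match that began 23 bases before it. The Csf2 window held neither. None of the 3 windows matched TTCNNNGAA (a STAT motif) or GGANTTTCC (an NF-κB motif). Of 32851 windows of the same length in the RefSeq table, 6.75% held the AP-1 letters, 42.2% the SMAD letters, 7.02% the STAT letters and 1.07% the NF-κB letters. A second Il11 start site in the table had 2 SMAD matches and no AP-1 match. A match in letters describes the sequence only.

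The arrays were compared with each other before the cytokines were read. All 6 lay on 1 slide and shared 1 scan time, with replicates 1 and 2 of both groups in slide row 1 and replicate 3 of both groups in slide row 2. Between 55.0% and 59.0% of probes were well above background on each array. The TGF-β1 replicate 3 array stood apart from the other treated arrays. Its Euclidean distance over the log2 signals of the 14345 genes tested was 61.1 and 62.3 to the other TGF-β1 arrays and 54.4 to 60.9 to the controls, whereas TGF-β1 replicates 1 and 2 were 32.3 apart and the controls 38.7 to 48.1. The cytokine results, and the calls of other genes that change without that array, are therefore also given without it. Among markers of the labelled tissue, 11 of 12 epithelial genes were above background on all 6 arrays, among them Epcam and Cdh1, and Muc5ac was not on any. Of 16 leukocyte markers, 9 were above background on no array, including the pan-leukocyte gene Ptprc, and 6 (Cd3e, Cd68, Itgam, Csf1r, Cd14 and Fcer1g) were above background on all 6 arrays. Of 8 endothelial markers, 1 (Pecam1) was tested.

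The 10 genes fell into 2 classes by signal. The genes Il11, Lif, Il1rn, Il18, Il33 and Csf2 each had 1 probe well above background on all 6 arrays, and these 6 genes were tested. The other 4 genes, Il6, Il1a, Il1b and Tslp, were well above background on no array in either group. The brightness of a spot over its local background showed the gap between the classes. It was between 2.50 and 114.0 for the 6 bright probes and between 1.03 and 1.79 for the 8 dim ones, which included a second probe each of Il1rn and Il33.

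**Figure D1:**
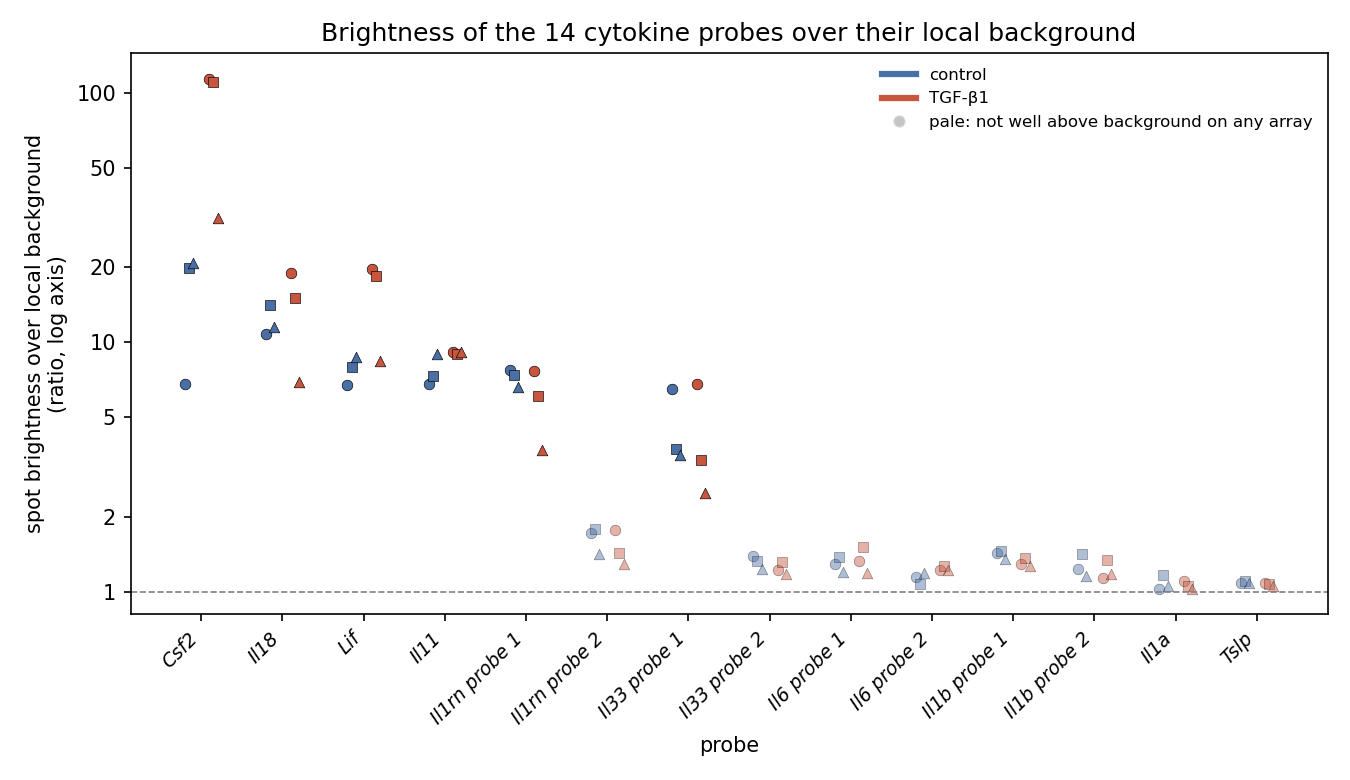
Median brightness of the spot over that of its local background (ratio, log axis) for each of the 14 probes on the 3 control arrays (blue) and the 3 TGF-β1 arrays (red), with circles, squares and triangles for replicates 1, 2 and 3. The 8 pale probes lie between 1.03 and 1.79 on all arrays, and Csf2 reaches 114.0.

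No cytokine gene was a differentially expressed gene (DEG), defined as a gene changed by 2-fold or more with a Benjamini-Hochberg adjusted p under 0.05 over all genes tested in limma. Of the 6 genes tested, 0 were upregulated DEGs, against 1.19% of the 14345 genes tested, and 0 were downregulated DEGs, against 0.188%. Csf2, Lif and Il1rn, 3 of the 6, had an unadjusted limma p under 0.05, against 22.2% of all genes. Csf2 was the 1 gene whose TGF-β1 values all lay above its control values, against 12.9% of all genes, and Il1rn the 1 gene whose TGF-β1 values all lay below them, against 13.5%. Without TGF-β1 replicate 3, Csf2 and Lif were upregulated DEGs, which makes 2 of 6 against 3.86% of all genes, and 0 of 6 were downregulated, against 1.09%. In bulk cultures such as these, fewer cells of a type and less RNA per cell cannot be told apart.

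**Figure D2:**
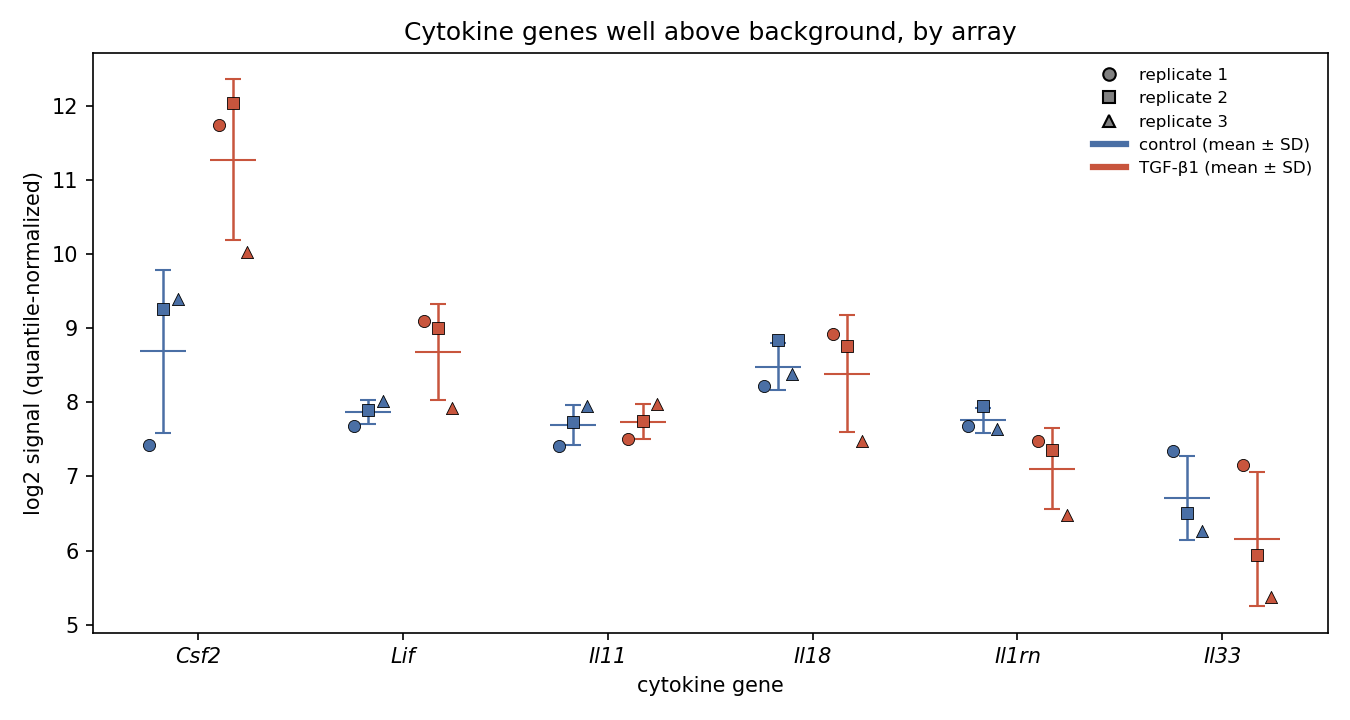
Quantile-normalized log2 signal of the 6 tested cytokine genes on each control array (blue) and TGF-β1 array (red), with replicates 1, 2 and 3 as circles, squares and triangles, and the mean and SD of each group (n = 3) as bars. Csf2 values do not overlap between the groups, Il11 values nearly coincide, and TGF-β1 replicate 3 is the lowest treated array for every gene but Il11.

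Csf2 had the largest fold change of the 6 genes. Its log2 signal was 7.42, 9.26 and 9.39 on the control arrays of replicates 1, 2 and 3 and 11.74, 12.04 and 10.03 on the TGF-β1 arrays. All treated arrays lay above all controls, with TGF-β1 replicate 3 the nearest to the controls and control replicate 1 well below the other controls. The spot was 6.81 to 20.9 times as bright as its local background in the controls and 31.4 to 114.0 times in the treated cultures. The mean was 8.69 ± 1.10 (SD, n = 3) in the controls and 11.27 ± 1.09 (SD, n = 3) with TGF-β1. The difference, a log2 fold change of 2.58 (SE 0.69, 95% interval 0.94 to 4.22), is 5.98-fold. This increase ranked 52nd of the 14345 genes, yet the limma adjusted p was 0.117, and the exact permutation test gave p = 0.1, the smallest that 3 against 3 can give. Leaving out TGF-β1 replicate 3 gave 3.20 (SE 0.59) on the log2 scale, and the limma adjusted p was then 0.0241. With any 1 of the other 5 arrays left out instead, Csf2 was not a DEG. Within slide row 1 the difference of means was 3.55 on the log2 scale, and between the 2 arrays of row 2 it was 0.64.

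Lif was the other gene whose call depended on 1 array. LIF keeps embryonic stem cells undifferentiated and is released by epithelium in injured lung. The log2 signal of Lif was 7.69, 7.90 and 8.01 in the controls and 9.10, 9.01 and 7.93 in TGF-β1 replicates 1, 2 and 3. Treated replicates 1 and 2 lay above every control, and treated replicate 3 lay inside the control range. The log2 fold change was 0.81 (SE 0.31, 95% interval 0.07 to 1.55), or 1.75-fold, with a limma adjusted p of 0.199 and an exact permutation p of 0.2. Without TGF-β1 replicate 3 it was 1.18 (SE 0.13), or 2.27-fold, with a limma adjusted p of 0.00764. The difference was 1.26 within slide row 1 and −0.09 in row 2.

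Il11 showed the smallest change of the 6 genes. Il11 had log2 signals of 7.41, 7.73 and 7.95 in the controls and of 7.50, 7.75 and 7.98 in the TGF-β1 cultures. The groups overlapped almost entirely, and arrays of the same replicate number differed by 0.02 to 0.09, although the number does not pair the cultures in the labels. The spot was 6.79 to 9.19 times as bright as its background over the 6 arrays. The log2 fold change was 0.04 (SE 0.18), and its 95% interval ran from −0.40 to 0.48, that is from 0.76-fold to 1.39-fold, so that a 2-fold change in either direction lay outside it. The limma adjusted p was 0.906, and the exact permutation p was 0.7. Leaving out TGF-β1 replicate 3 gave −0.08 with an adjusted p of 0.799. Il11 was also the 1 tested cytokine gene that was not lower in TGF-β1 replicate 3 than in both other treated arrays. The other 5 were, against 36.5% of all genes tested. The 3 tested genes whose log2 signal followed that of Il11 most closely over the 6 arrays were Cables2 (Pearson r = 0.99), Tent4b (r = 0.99) and Prpsap1 (r = 0.987). These were the highest of 14345 correlations over 6 points and are a description of the arrays. Il6, the third gp130 cytokine, had 2 probes with spot over background between 1.07 and 1.52 on all arrays, so that no fold change was computed.

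**Figure D3:**
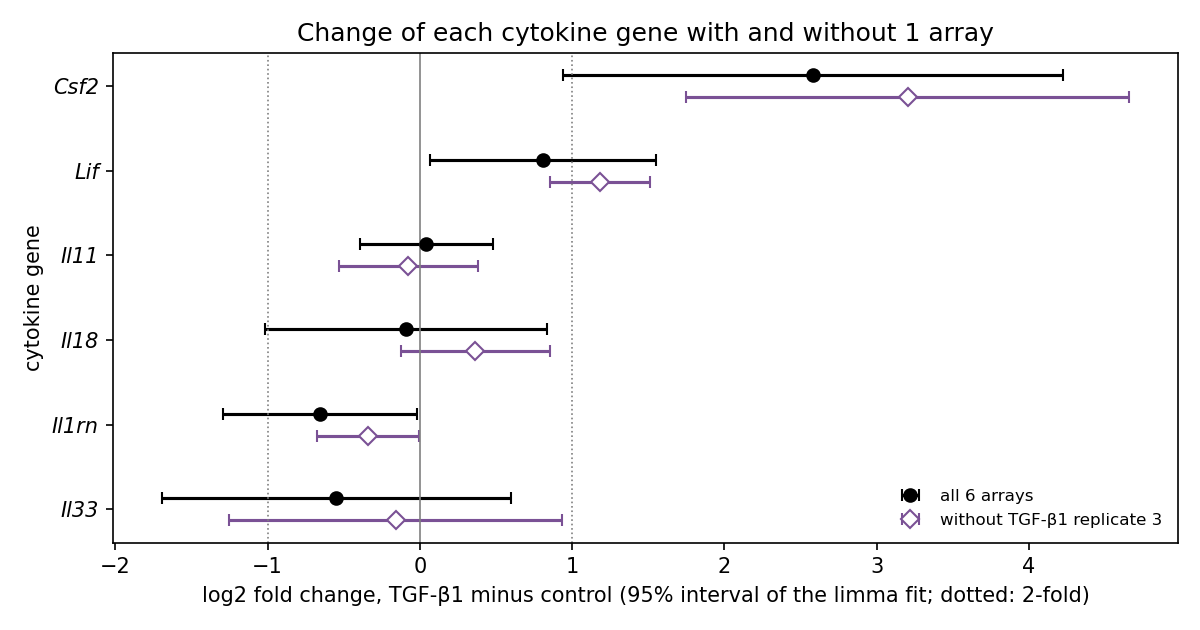
Log2 fold change (TGF-β1 minus control) of the 6 tested cytokine genes with the 95% interval of the limma fit, for all 6 arrays (black) and without TGF-β1 replicate 3 (open diamonds). The Csf2 interval with all arrays runs from 0.94 to 4.22, and Il18 moves from −0.09 to 0.36 when the array is left out.

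Among the IL-1 family genes, Il1rn was lower in all treated cultures than in any control. The bright Il1rn probe had log2 signals of 7.68, 7.95 and 7.65 in the controls and 7.48, 7.35 and 6.48 in the TGF-β1 cultures. The gap between the groups was narrow, and replicate 3 lay far below the other treated arrays. Il1rn differed by −0.66 on the log2 scale (SE 0.27, 95% interval −1.29 to −0.02), with a limma adjusted p of 0.218 and an exact permutation p of 0.1. It was −0.34 without TGF-β1 replicate 3, with an adjusted p of 0.134. The second Il1rn probe was dim on all arrays, at 1.29 to 1.79 times its background, and has no fold change.

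Il18, which encodes a cytokine that epithelium stores as an inactive precursor, had log2 signals of 8.22, 8.84 and 8.38 in the controls and 8.92, 8.77 and 7.47 in the TGF-β1 cultures. Treated replicates 1 and 2 lay near the highest control and replicate 3 below the lowest. The log2 fold change of −0.09 (SE 0.39, 95% interval −1.02 to 0.83, limma adjusted p = 0.903) turned to 0.36 without TGF-β1 replicate 3 (adjusted p = 0.239).

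Il33 encodes a nuclear alarmin that is released from damaged cells. Its log2 signal was 7.34, 6.50 and 6.27 in the controls and 7.15, 5.94 and 5.37 in the TGF-β1 cultures. Replicate 1 was the highest array in both groups, and the groups overlapped. The log2 fold change was −0.55 (SE 0.48, 95% interval −1.69 to 0.60) and the limma adjusted p 0.513. Leaving out TGF-β1 replicate 3 gave −0.16. Leaving out each array in turn gave −1.05 to −0.16, with adjusted p from 0.343 to 0.85. The second Il33 probe was dim, at 1.18 to 1.39 times its background.

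The agonists Il1a and Il1b and the alarmin Tslp were near background in every culture. The Il1a spot was 1.03 to 1.17 times as bright as its local background, and the Tslp spot was 1.05 to 1.11 times. The 2 Il1b probes lay between 1.13 and 1.46. No probe of these genes rose clear of background on any TGF-β1 array. Low signal on an array is a bound for that probe, and does not show that the RNA was absent.

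The genes around the cytokines were read from lists of ligands, receptors and signalling genes. The lists held 111 genes other than the cytokines above, of which 88 were tested. Among them, 4 were upregulated DEGs (2 of them with controls near background, given as bounds) and 0 were downregulated, beside 1.19% and 0.188% of all genes, and without TGF-β1 replicate 3 the count was 9 upregulated and 0 downregulated, beside 3.86% and 1.09%. An unadjusted limma p under 0.05 was reached by 18 of the 88, beside 22.2% of all genes. The median log2 fold change of the 88 was 0.05, and that of all genes tested was −0.03.

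**Figure D4:**
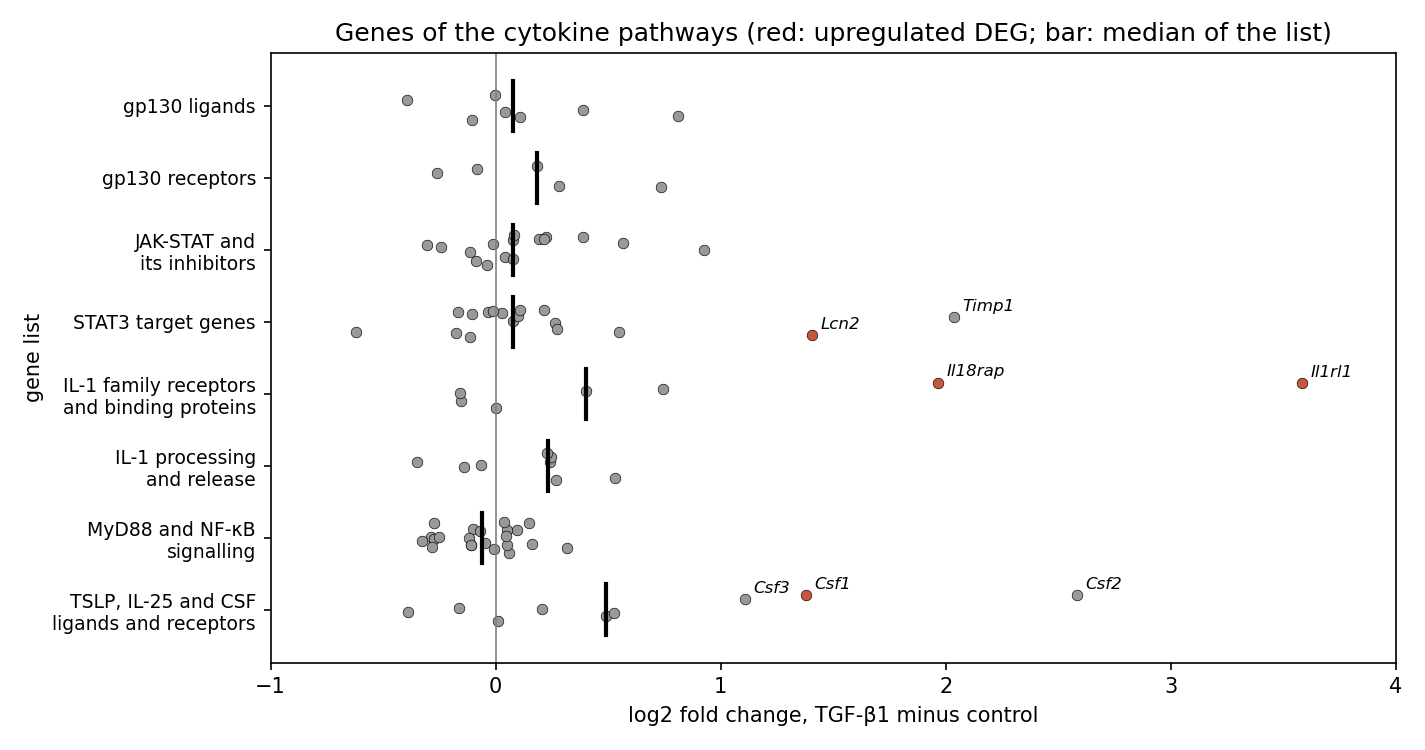
Log2 fold change (TGF-β1 minus control) of the tested genes of 8 pathway lists, 1 point per gene except for 1 gp130 ligand that is not shown, with the black bar at the median of the list and upregulated DEGs in red. The DEGs are Il1rl1, Il18rap, Lcn2 and Csf1, where Il1rl1 and Il18rap are drawn at fitted values that rest on controls near background, and the MyD88 and NF-κB genes lie close to 0.

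Of 12 gp130 ligands, with Il11, Lif and Il6 among them, 8 were tested and 0 were DEGs, with a median log2 fold change of 0.07. Without TGF-β1 replicate 3, 2 of the 8 were upregulated DEGs, Lif among them. Il27, a heterodimeric cytokine subunit, had a log2 fold change of −0.40 with a limma adjusted p of 0.158. Osm, Ctf2 and Il31 were not tested.

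Of the 9 gp130 receptor genes listed, 5 were tested and 0 were DEGs. The oncostatin M receptor gene Osmr had a log2 fold change of 0.73 (adjusted p = 0.154), and Il6st and Il6ra had 0.28 and −0.26. Il11ra1, which encodes the receptor chain for IL-11, had 0.19 (SE 0.13, adjusted p = 0.421). All 16 genes of the JAK-STAT list were tested and, with all 6 arrays, 0 were DEGs. Socs1, an inhibitor of JAK kinases, had a limma adjusted p of 0.0357 with a log2 fold change of 0.93, just short of 2-fold. It passed 2-fold and was an upregulated DEG without TGF-β1 replicate 3 (1.01, adjusted p = 0.0162) and with scaling to the 75th percentile (1.04, adjusted p = 0.029). With normexp background (0.69) and with the replicate block (adjusted p = 0.0927) Socs1 was not a DEG. The same held when any array other than TGF-β1 replicate 3 was left out (adjusted p up to 0.161). Cish and Socs2, other inhibitors of the pathway, had 0.57 and 0.39 with adjusted p of 0.18 and 0.22.

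Of 19 STAT3 target genes, 17 were tested and 1 was a DEG, with a median of 0.08. Lcn2, an iron-sequestering protein that epithelium also makes under NF-κB signals, rose from 14.22, 13.94 and 13.78 in the controls to 15.23, 15.77 and 15.17 in the TGF-β1 cultures. All treated arrays lay above all controls. The increase was 1.41 on the log2 scale (SE 0.20), with a limma adjusted p of 0.0221, and its 2 probes gave 1.41 and 1.28. Lcn2 lost the DEG call when any array other than TGF-β1 replicate 3 was left out, with adjusted p up to 0.0977. Timp1, an inhibitor of matrix metalloproteinases, had a higher log2 fold change of 2.04 with an adjusted p of 0.0597. Timp1 was an upregulated DEG without TGF-β1 replicate 3 (2.50, adjusted p = 0.00347), with scaling to the 75th percentile (1.97, adjusted p = 0.0405) and with another background correction, normexp (1.93, adjusted p = 0.0281). With replicate number or slide row as a block Timp1 was not a DEG (adjusted p = 0.122 and 0.0548). The same held when any array other than TGF-β1 replicate 3 was left out (adjusted p up to 0.216).

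Of 9 receptors and binding proteins of the IL-1 family, 7 were tested, and Il1rl1 and Il18rap passed the DEG thresholds. Both passed the filter on dim probes through the TGF-β1 arrays, since each was well above background on 3 of 3 treated arrays and on 1 of 3 control arrays. Neither was tested when a probe had to be above background on all 6 arrays, and their changes are given as bounds, with each control array at the higher of its own value and the lowest signal well above background there. Each bound compares group means of the deposited background-subtracted signal, without a spread. It does not hold with normexp background, where both fitted changes lay below their log2 bounds of 2.39 and 1.52. Il1rl1 encodes ST2, the receptor for IL-33, of which a soluble form acts as a decoy. Its log2 signal was 1.62, 3.11 and 4.05 in the controls and 7.06, 6.43 and 6.03 in the TGF-β1 cultures. On the deposited signal this was at least 5.24-fold higher with TGF-β1. The value fitted by limma, 3.58 on the log2 scale (SE 0.59, adjusted p = 0.0393), rests on those control values and was 1.10 with normexp background. The mean of its 2 bright probes gave 3.10 with an adjusted p of 0.0599. Il18rap, the accessory chain of the IL-18 receptor, had log2 signals of 3.00, 3.97 and 4.31 in the controls and 6.06, 5.52 and 5.61 in the TGF-β1 cultures, at least 2.87-fold higher. Its fitted log2 fold change was 1.97 (SE 0.34, adjusted p = 0.0432), and 0.52, with no DEG call, with normexp background. Both lost the call without control replicate 1, control replicate 2, TGF-β1 replicate 1 or TGF-β1 replicate 2, with adjusted p up to 0.157 for Il1rl1 and 0.17 for Il18rap. Il18r1, the ligand-binding chain for IL-18, had 0.74 (adjusted p = 0.381), and 1.30 (adjusted p = 0.0272) without TGF-β1 replicate 3.

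The 5 other IL-1 family ligands, Il1f5, Il1f6, Il1f8, Il1f9 and Il1f10, were too dim to be tested. Of 11 genes for processing and release of IL-1 cytokines, 8 were tested and 0 were DEGs. Casp1, which encodes the protease that cleaves IL-1β and IL-18, had −0.35 and Casp8 had 0.27, with adjusted p of 0.314 and 0.233. The DNA sensor gene Aim2 was above background on 1 of 3 control arrays and 3 of 3 TGF-β1 arrays. It thus passed the filter through the treated group, and its fitted 0.53 (adjusted p = 0.265) rests on controls near background. All 22 genes of MyD88 and NF-κB signalling were tested and 0 were DEGs. Their median log2 fold change was −0.06, and the largest in size were −0.33 for Myd88, 0.32 for Tnfaip3 and −0.29 for Ikbkg.

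Of 14 ligands and receptors of TSLP, IL-25 and the colony-stimulating factors, 9 were tested and 1 was a DEG, with a median of 0.49. Csf1 encodes macrophage colony-stimulating factor. It rose from 12.85, 12.90 and 13.43 in the controls to 14.50, 14.61 and 14.20 in the TGF-β1 cultures. The groups did not overlap, and the log2 fold change was 1.38 (SE 0.19) with a limma adjusted p of 0.0216. Its 3 probes gave 1.37 to 1.43. The call was lost without control replicate 1, control replicate 2, TGF-β1 replicate 1 or TGF-β1 replicate 2, with adjusted p up to 0.106. Csf3, for granulocyte colony-stimulating factor, had 1.11 (adjusted p = 0.118), and 1.47 (adjusted p = 0.00435) without TGF-β1 replicate 3. The GM-CSF receptor genes Csf2ra and Csf2rb had 0.49 and −0.39 with adjusted p of 0.34 and 0.441. Il11ra1, Timp1, Il18r1, Csf3, Csf2ra and Csf2rb were named after their values were seen.

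Markers of other cell types were read beside Csf2, Lif and the receptors. The summed linear signal of the 6 tested leukocyte markers was 17488 to 20920 in the controls and 19441 to 20186 in the TGF-β1 cultures, and 0 of the 6 were DEGs. Cd68 and Itgam had log2 fold changes of 0.90 and 0.43, with no overlap between the groups, and Cd14 had −0.40, each with an unadjusted limma p under 0.05 and adjusted p of 0.147, 0.134 and 0.176. Among the epithelial markers, Foxj1, a regulator of ciliated cells, was an upregulated DEG (1.47, adjusted p = 0.00239), also without TGF-β1 replicate 3 (1.47, adjusted p = 0.00268). Epcam and the basal cell keratin gene Krt5 had 0.82 and 1.37 with adjusted p of 0.115 and 0.178. Both were upregulated DEGs when TGF-β1 replicate 3 was left out (1.03 and 1.90, adjusted p = 0.0179 and 0.0195). Neither was one when any other array was left out, with adjusted p up to 0.329 and 0.444. Scgb1a1, a club cell gene, had −2.27 (adjusted p = 0.158). Of the 11 tested epithelial markers, 7 were higher and 4 lower, with a median of 0.18. Krt19 and Cav1 had −0.30 and −0.33. Of 10 fibroblast markers listed, 5 were tested. Their summed signal was 567.4 to 637.6 in the controls and 2689, 1189 and 695.0 in TGF-β1 replicates 1, 2 and 3. This sum adds probes of unlike brightness, and Dcn was the brightest of the 5 on every array. Dcn had log2 signals of 8.98, 8.81 and 8.96 in the controls and 11.10, 9.68 and 8.98 in the TGF-β1 cultures. Its log2 fold change was 1.00 (adjusted p = 0.273), and that of Pdgfra was 0.21 (adjusted p = 0.484). Col1a1 and Col1a2 were above background on 0 of 3 control arrays and 3 of 3 TGF-β1 arrays, so they passed the filter through the treated group. Their changes are bounds of the same kind, at least 2.16-fold and 2.38-fold higher with TGF-β1 on the deposited signal. With normexp background they were 0.60 and 0.43 on the log2 scale, below the log2 bounds of 1.11 and 1.25, and lost the DEG call. The call was also lost without control replicate 1, control replicate 2 or TGF-β1 replicate 2, with adjusted p up to 0.0644 and 0.0754. Thy1 had 4.14, 4.67 and 4.23 in the controls and 8.19, 7.65 and 4.60 in the TGF-β1 cultures, a log2 fold change of 2.47 (adjusted p = 0.176), and it was an upregulated DEG without TGF-β1 replicate 3 (3.58, adjusted p = 0.00219). The other fibroblast genes Col3a1, Pdgfrb, Lum, Dpt and Tcf21 were above background on no array. Like Csf2 and Lif, the fibroblast sum, Epcam and Krt5 were lowest among treated cultures in replicate 3, as were 36.5% of all genes tested. Il1rn, Il18, Il33 and the epithelial genes Cdh1, Krt8, Krt18, Krt19, Trp63 and Nkx2-1 were lowest there as well. Foxj1, Scgb1a1 and Cav1 were not. The part of these cell types in the cytokine values was not tested.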

How the data were processed

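Microarray data of 6 cultures, 3 with TGF-β1 and 3 controls, were used. The authors deposited the spot intensity of each array on a linear scale, background-subtracted by Agilent Feature Extraction 11.0.1.1, with no normalization between arrays. The deposited tables also hold the median intensity of spot and local background, and marks for outliers and for spots well above background. Control spots and outliers were left out. Log2 signals were quantile-normalized, and 32460 of 56599 probes, those well above background on at least 3 arrays, were kept. Accessions were named through RefSeq (GRCm38.p6), and 32991 of 35883 RefSeq probes matched. The brightest kept probe on average represented a gene. The 14345 genes were fitted with limma 3.58.1 (R 4.3.3) on group alone, and the fit was tested on simulated data. Exact permutation tests were two-sided. The number of arrays limits the precision.

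The cytokines, the lists and the tests were chosen with earlier results of these data known. Of each list, up to 4 DEGs were named, or else the 3 tested genes of largest change, and the 3 genes most correlated with Il11. Among the listed genes, 1 is not reported here. The alternatives were 75th percentile scaling, normexp background (offset 50), other filters, the mean of a gene's probes, other variance settings, array weights, slide row or replicate number as a block, the methods' t-test, an unadjusted threshold and each array left out in turn, with normalization and filter kept. The background alternative used the median spot intensity in place of the planned mean. Same-numbered arrays deviated from their group means with correlations of −0.01, 0.33 and −0.05, and were not treated as pairs. Protein sequences were not used here.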

Additional observations from a re-analysis of the deposited data

How the results depend on the processing

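The 6 tested cytokine genes were recomputed under 19 alternatives, which gave 114 fold changes. Of these, 100 kept direction and side of the DEG threshold, 8 passed it and 6 turned direction. The count of upregulated cytokine DEGs, 0 in the report, was 2 (Lif and Csf2) with array weights, which gave TGF-β1 replicate 3 the lowest weight of 0.30, and 2 (Lif and Csf2) on the arrays of slide row 1 only, an alternative chosen after seeing the data. It was 1 (Csf2) with the methods' t-test without adjustment and 1 (Csf2) with an unadjusted limma p. Over all 14345 genes tested, 594 were called up with array weights and 627 on slide row 1, against 171 in the report. The unadjusted t-test and the unadjusted limma p called 312 and 385. Leaving out each array in turn gave 0 to 2 cytokine DEGs, with 2 reached without TGF-β1 replicate 3, where 553 of all genes were called up. With the replicate block the cytokine count was 0. None of Lcn2, Il1rl1, Il18rap and Csf1 stayed a DEG there either (adjusted p 0.0673 to 0.111), and the block moved the DEGs of all genes from 171 to 85 upregulated. No alternative gave a downregulated cytokine DEG. Il18 turned to 0.34 with array weights and to 0.32 on slide row 1, and with each array left out it ran from −0.36 to 0.36. Il11 ran from −0.10 to 0.17 when each array was left out. Over all alternatives Csf2 ran from 1.95 to 3.55 and Lif from 0.60 to 1.26. Without the filter on dim probes, 49 genes of the array were upregulated DEGs, and none of the 4 list genes stayed one. Scaling to the 75th percentile moved the median of all genes from −0.03 to −0.09. The causes were not tested.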
